A study of Mus musculus with 96 samples.

Results

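The genes Col4a1 to Col4a6 encode the α chains of type IV collagen, and their transcripts were followed through single neurons of the mouse lateral superior olive (LSO), a nucleus of the auditory brainstem. The 6 genes were taken by symbol from the 38887 genes of the expression table through their Ensembl identifiers. The family was chosen by earlier TPM values of these libraries, in which Col4a3 and Col4a4 separated the classes of neurons, so their class difference is given as a description. Each library was made from the cytoplasm of 1 patch-clamped neuron (patch-seq). All neurons came from C57BL/6J mice of both sexes in the second postnatal week, around hearing onset, and the labels name no animals. Groups follow the labelled firing pattern: principal neurons (pLSOs), which fire at the onset of a current pulse (pLSO Onset, 41 neurons) or throughout it (pLSO Sustained, 11 neurons), and lateral olivocochlear neurons (LOCs), which fire with a delay (LOC Delayed, 28 neurons). As background, 8 negative controls were used, for which a pipette only touched the slice. The label of 7 other libraries disagreed with their membership in the cluster means of the study. In 4 more, all labelled Onset, the values were not those printed by the study for the neuron so named. Of these, cell_39 equalled none of the 42 printed neurons it was compared with, and it was left out with the 7 (6 neurons and 2 negative controls in all). The other 3, cell_31, cell_33 and cell_35, equalled the printed values of other Onset names and were kept. Detection, mean and class difference of Col4a1 are also given without them, and the other results include them.

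Type IV collagen forms the network of basement membranes, the thin sheets on which endothelial and epithelial cells rest and which surround muscle and peripheral glia. Each molecule is a trimer of α chains. The trimer of the α1 and α2 chains is found in nearly all basement membranes, whereas the trimer of α3, α4 and α5 chains is known from the kidney glomerulus, the lung and the inner ear, and mutations in its genes cause Alport syndrome, with kidney disease and hearing loss. The genes lie in pairs, head to head, with the starts of a pair facing away from each other. LOCs send their axons back to the cochlea, whereas pLSOs compare sound levels between the ears.

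The positions of the pairs follow Gencode vM21 on GRCm38. On chromosome 8, Col4a1 (ENSMUSG00000031502, minus strand, 11198423 to 11312826) and Col4a2 (ENSMUSG00000031503, plus strand, 11312805 to 11449287) overlapped by 22 bases at their starts. On chromosome 1, Col4a4 (ENSMUSG00000067158, minus strand, 82448423 to 82586849) and Col4a3 (ENSMUSG00000079465, plus strand, 82586921 to 82722059) had 71 bases between their starts. On chromosome X, Col4a6 (ENSMUSG00000031273, minus strand, 141165403 to 141474076) and Col4a5 (ENSMUSG00000031274, plus strand, 141475385 to 141689234) were 1308 bases apart. The stretches between or across the starts of the pairs detected in these neurons are shown. The Col4a4-Col4a3 interval lies before both of its genes, whereas the Col4a2-Col4a1 overlap lies inside both of its genes. Both stretches are RefSeq sequences (GRCm38.p6, plus strand), and capitals mark a GC box (GGGCGG).
Col4a4-Col4a3 interval, chr1:82586850-82586920: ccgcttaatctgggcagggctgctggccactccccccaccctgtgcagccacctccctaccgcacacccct
Col4a2-Col4a1 overlap, chr8:11312805-11312826: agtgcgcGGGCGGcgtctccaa
The Col4a4-Col4a3 interval was 69.0% G and C, against a median of 54.9% over the same 71 bases before the start of 32844 promoters. It held no GC box (GGGCGG) on either strand, and 20.7% of those windows did. A CCAAT box was absent from it and present in 13.3% of the windows, and a TATA box (TATAAA) was absent from it and present in 4.41%. In the overlap of Col4a2 and Col4a1 the GC box was at bases 8 to 13, and 4.09% of 32851 promoters had one in the first 22 bases after the start.

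The values of the table are TPM, a unit that corrects for gene length and depth, rounded to whole numbers, and a gene was counted as detected at 1 TPM or more. The number of reads behind 1 TPM could be recovered from the steps between low values. The value of a read in each library was fitted to the low values of that library. In 90 libraries that were not used for the divisor along the rows, 97.2% of 11655 low values were then whole reads within 0.1 read. This check used only values where 1 read was worth 5 TPM or more. At the rows of the 6 members a read was worth less in these libraries, so those rows were not part of it. The scale differed along the table: the length by which reads had been divided followed the order of the rows and not the gene. Values of 1 gene can therefore be compared between neurons as deposited, and levels of different genes were compared only after rescaling to the length of each gene (own-length TPM). Libraries of pLSOs held a median of 689945 estimated reads (149618 to 2714221), those of LOCs 497417 (244191 to 1480584) and negative controls 26798 (2131 to 115970). For Col4a3, 1 TPM corresponded to a median of 30.2 reads in pLSOs (5.38 to 142) and 20.1 reads in LOCs (11.6 to 72.4), and for Col4a1 and Col4a2 to 7.37 and 4.91 reads. A value listed as 0 thus does not exclude some reads. Relative to depth the limit was similar in both classes: a Col4a3 value that rounds to 0 was below a median of 22.4 RPM (reads scaled to 1000000 per library) in pLSOs (at most 29.4) and 19.7 in LOCs (at most 27.1).

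Markers of the classes were compared first. Spp1 (osteopontin) was detected in 50 of 52 pLSOs and in 1 of 28 LOCs. Calca, which encodes the neuropeptide CGRP, was detected in 26 of 28 LOCs with a mean of 1174 TPM, but also in 15 of 52 pLSOs, with a mean of 2.60 TPM, and in 5 of 8 negative controls. Ucn (urocortin) and Isl1, a transcription factor of motor neurons and related cells, were detected in 23 and 22 LOCs and in no pLSO. Gata3, another transcription factor, was found in 22 LOCs and 7 pLSOs. In 2 LOCs, cell_57 and cell_76, Calca, Ucn and Isl1 were all listed at 0, as was Spp1, whereas Gata3 was at 903 TPM in cell_57 and at 2 TPM in cell_76.

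Col4a3 was detected in LOCs and in no pLSO. In the 28 LOCs, Col4a3 ranged from 0 to 158 TPM with a median of 43.5, and the mean was 51.1 TPM ± 45.7 (SD over neurons). It was detected in 23 of 28 LOCs (82.1%, exact Clopper-Pearson 95% interval 63.1 to 93.9), and these 23 neurons had between 5 and 158 TPM, with no value between 0 and 5. In all 41 Onset and all 11 Sustained neurons the value was 0 (0 of 52 pLSOs, which allows a share of up to 5.77%). The groups did not overlap except at 0, where 5 LOCs were also listed. On the log2(TPM + 1) scale, LOCs exceeded pLSOs by a mean of 4.60. Intervals and limits cover counting error only, and since no animals are named each group is 1 sample and no test was made.

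The reads behind these values were many. The 23 LOCs with Col4a3 held between 162 and 2763 estimated reads of the gene, with a median of 1343, and 31545 in all, whereas in any pLSO a value of 0 can hide at most 70.9 reads. In the negative controls, Col4a3 was listed at 1, 1, 1 and 5 TPM in 4 of 8 libraries. With the few reads of those libraries, these values stood for 0.914 to 3.56 reads. Pooled over the 28 LOCs, Col4a3 had 1721 RPM. Ranked by own-length TPM, Col4a3 was number 203 of 12009 genes in LOCs (mean 629 own-length TPM ± 571), and by the deposited values it was number 1939.

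**Figure D1:**
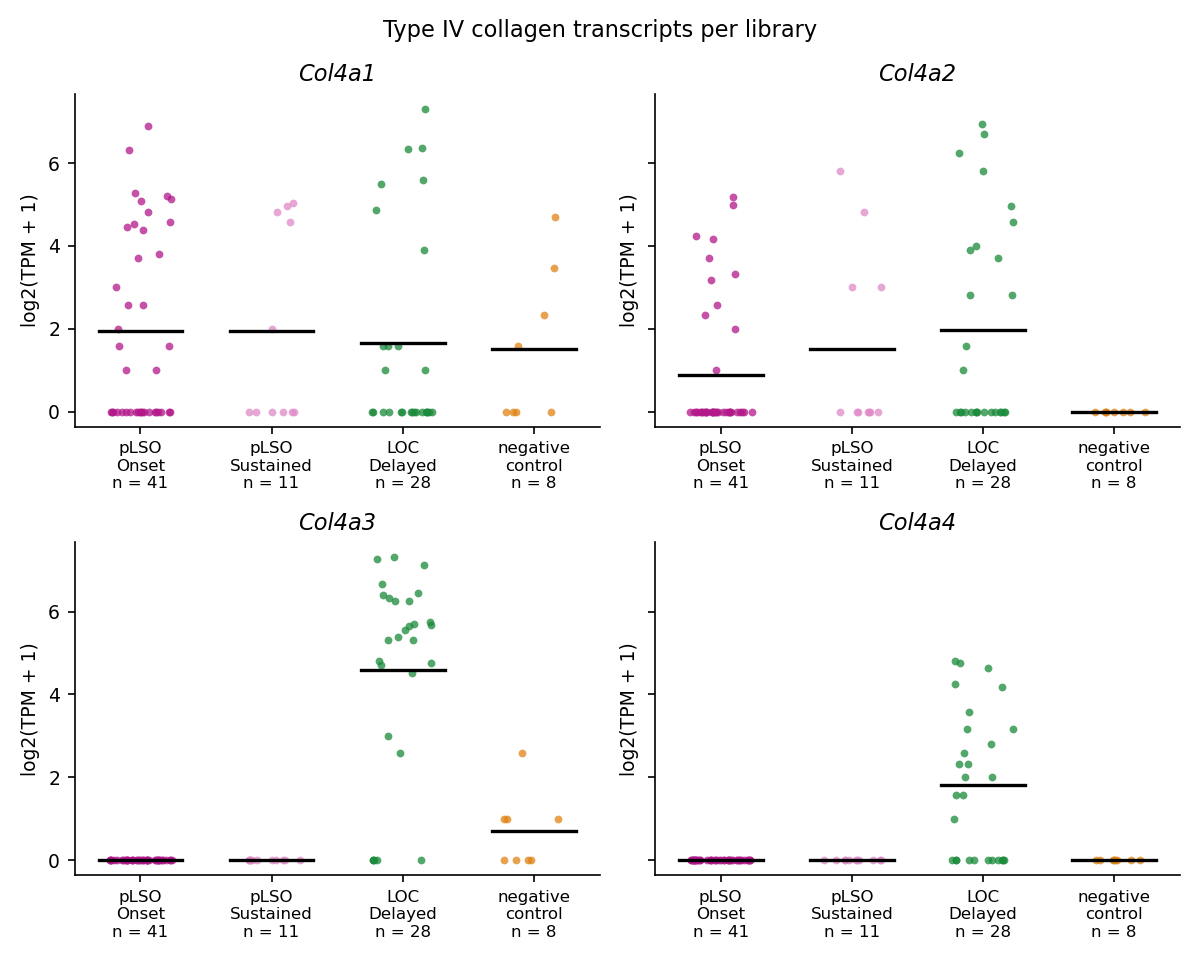
Level of 4 type IV collagen genes in each kept library, as log2(TPM + 1) on the y axis, by firing pattern and in negative controls on the x axis; each point is 1 library and the black line is the mean. Col4a3 and Col4a4 lie at 0 in all 52 pLSOs and above 0 in 23 and 17 of 28 LOCs, whereas Col4a1 and Col4a2 have points above 0 in every group of neurons.

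The 5 LOCs in which Col4a3 was listed at 0 differed in their class markers. Of these, cell_57 and cell_76 were the neurons with Calca, Ucn and Isl1 at 0. In contrast, cell_64 had 4484 TPM of Calca and 254 of Ucn, cell_68 had 1575 and 12, and cell_81 had 817 and 35. Without cell_57 and cell_76, which were set apart after their values had been seen, Col4a3 was detected in 23 of 26 LOCs (88.5%) with a mean of 55.0 TPM.

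Col4a4, the neighbour of Col4a3, showed the same restriction at a lower level. In LOCs it ranged from 0 to 27 TPM with a median of 2.5 and a mean of 6.04 ± 8.48 (SD, n = 28). It was detected in 17 of 28 LOCs (60.7%, interval 40.6 to 78.5), in 0 of 52 pLSOs and in 0 of 8 negative controls. The LOCs with Col4a4 had a median of 138 estimated reads of the gene and up to 849. On the log2(TPM + 1) scale the difference between LOCs and pLSOs was 1.81. Because these values are near the detection threshold, the share of LOCs depended on it: at 5 TPM it was 35.7% and at 10 TPM 21.4%. In comparison, the share of LOCs with Col4a3 was 82.1% at 5 TPM and 75.0% at 10 TPM.

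The class differences of the members were set beside those of all genes. Of 10319 genes detected in at least 5% of neurons, 2.8% had a mean at least 2-fold higher and a share of neurons at least 20 percentage points higher in LOCs, and 3.91% in pLSOs. Col4a3 and Col4a4 met these criteria in LOCs, and Col4a1 and Col4a2 met them in neither direction. With no detection in pLSOs and a share of LOCs as high as that of Col4a4, 4 genes (0.0388%) were found: Ucn, Col4a3, Isl1 and Col4a4. Because the cutoff was the share of Col4a4 itself, the places of Col4a3 and Col4a4 in this list were fixed in advance. Both passed the 5% filter through LOCs alone. The next gene, Uts2b, was detected in 57.1% of LOCs and in no pLSO. The count of 4 rests on leaving out cell_54, which is labelled as a Sustained neuron. It held 120 TPM of Col4a3, 6 of Col4a4 and 28 of Ucn, with Isl1 at 0. The values by class chose the genes and are given as a description.

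**Figure D2:**
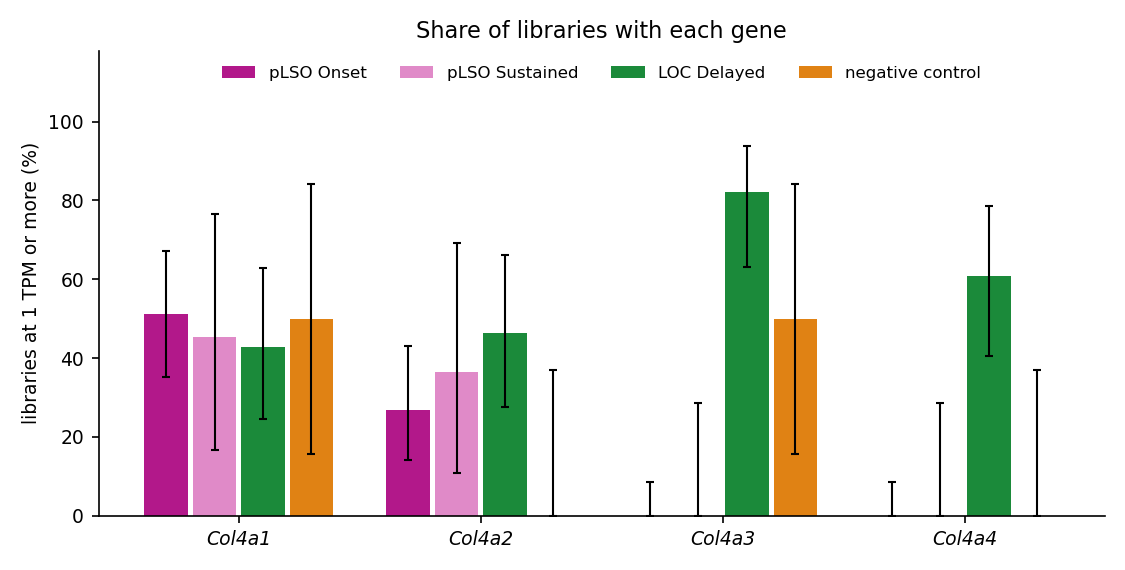
Share of libraries with 1 TPM or more (y axis, %) for 4 type IV collagen genes (x axis) in Onset, Sustained and LOC neurons and negative controls (41, 11, 28 and 8 libraries); bars are shares and whiskers exact Clopper-Pearson 95% intervals. For Col4a3 the LOC bar stands at 82.1% and no pLSO bar is visible because the share is 0.

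Col4a1 and Col4a2, the chains of the ubiquitous trimer, were found in both classes, at levels that varied widely between neurons. Col4a1 ranged from 0 to 118 TPM in pLSOs (median 0.5, mean 11.8 ± 21.6, n = 52) and from 0 to 157 TPM in LOCs (median 0, mean 16.4 ± 36.2, n = 28). It was detected in 21 of 41 Onset neurons (51.2%), 5 of 11 Sustained neurons (45.5%) and 12 of 28 LOCs (42.9%, interval 24.5 to 62.8), and the intervals of the groups overlapped. The ratio of the mean in LOCs to that in pLSOs was 1.39 and rested on 1 LOC: without the neuron at 157 TPM (cell_62) it was 0.947. The difference in log2(TPM + 1), LOC minus pLSO, was -0.28. The highest pLSO value, 118 TPM, was that of cell_33. Without cell_31, cell_33 and cell_35, a choice made after seeing the data, Col4a1 was detected in 23 of 49 pLSOs with at most 78 TPM and a mean of 8.94, the ratio was 1.84 and the log2 difference -0.05.

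Col4a2 ranged from 0 to 55 TPM in pLSOs (mean 4.60 ± 10.7) and from 0 to 121 TPM in LOCs (mean 16.5 ± 32.4), with a median of 0 in each class. It was detected in 11 of 41 Onset neurons (26.8%), 4 of 11 Sustained neurons (36.4%) and 13 of 28 LOCs (46.4%, interval 27.5 to 66.1). The mean in LOCs was 3.60 times that in pLSOs, 4.74 times that in Onset neurons and 1.89 times that in Sustained neurons. A ratio of at least 2 in favour of LOCs was also present in 21.9% of all 10319 genes. The share in LOCs was 17.6 percentage points higher, below the 20 points used for a call, and the intervals overlapped. Col4a1 was listed in 4 of 8 negative controls at 2 to 25 TPM, which stood for 0.892 to 1.30 reads, and Col4a2 in none. In neurons with Col4a1, the median was 151 reads in pLSOs and 93.9 in LOCs. The counts of reads that fall in the 22 bases shared by Col4a1 and Col4a2 cannot be assigned to 1 of them if strand was not used, which is not given in the sources used here.

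Markers of vascular cells were found in a part of the same libraries. Of 8 endothelial markers, at least 1 was detected in 13 of 52 pLSOs and 5 of 28 LOCs. Pecam1 was detected in 10 pLSOs, 5 LOCs and 2 of 8 negative controls, and was the only one in LOCs. Cdh5, Kdr and Emcn were at 0 in all 80 neurons. Of 7 mural markers, at least 1 was detected in 10 of 52 pLSOs and 1 of 28 LOCs, and Pdgfrb and Kcnj8 were at 0 in all neurons. For comparison, 59.0% of all 38887 genes were at 0 in all 96 libraries. The summed own-length level of the endothelial markers had a median of 0 in both classes (0 to 88.6 in pLSOs, 0 to 229 in LOCs), and that of the mural markers likewise (0 to 44.7 and 0 to 11.4). Among the 26 pLSOs with Col4a1, 5 had an endothelial and 4 a mural marker, against 8 and 6 of the 26 pLSOs without Col4a1. Among the 12 LOCs with Col4a1, 0 had an endothelial and 1 a mural marker, against 5 and 0 of the 16 without. For Col4a2, 3 of 15 pLSOs and 1 of 13 LOCs with the gene had an endothelial marker, against 10 of 37 and 4 of 15 without. Mural markers were found in 3 of 15 pLSOs and 0 of 13 LOCs with Col4a2, against 7 of 37 and 1 of 15 without. Fibroblast markers were found in 2 of 26 pLSOs and 3 of 12 LOCs with Col4a1, against 5 of 26 and 1 of 16 without. For Col4a2 they were found in 1 of 15 and 1 of 13, against 6 of 37 and 3 of 15. In both classes the share of neurons with an endothelial marker was lower among those with Col4a1 or Col4a2 than among those without, whereas the shares with a fibroblast marker (Col4a1) and a mural marker (Col4a1) in LOCs, and with a mural marker (Col4a2) in pLSOs, were higher among those with the gene. For Col4a3, 3 of the 23 LOCs with the gene and 2 of the 5 without had an endothelial marker. Glial transcripts were common in both classes: an oligodendrocyte marker was present in 49 of 52 pLSOs and 28 of 28 LOCs. An astrocyte marker was present in 36 pLSOs and 18 LOCs, and a microglia marker in 30 pLSOs and 19 LOCs, of which 16 were among the 23 with Col4a3. Astrocyte markers were found in 19 of 26 pLSOs and 6 of 12 LOCs with Col4a1, against 17 of 26 and 12 of 16 without. For Col4a2 they were found in 11 of 15 and 8 of 13, against 25 of 37 and 10 of 15. Microglia markers were found in 15 of 26 pLSOs and 8 of 12 LOCs with Col4a1, against 15 of 26 and 11 of 16 without. For Col4a2 they were found in 11 of 15 and 10 of 13, against 19 of 37 and 9 of 15. The part of vascular, fibroblast and glial RNA in these values was not tested.

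Col4a5 and Col4a6 were listed at 0 in all 96 libraries, as were 22943 of all 38887 genes (59.0%). For Col4a5, which encodes the third chain of the trimer with α3 and α4, 0 of 28 LOCs allows a share of up to 10.7%, and 0 of 80 neurons a share of up to 3.75%. The resolution at these rows was finer than for Col4a3: a value that rounds to 0 was below 6.47 RPM in every LOC. Col4a5 and Col4a6 thus differed from Col4a3 and Col4a4, which had 1721 and 177 RPM in LOCs.

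Within LOCs the mean own-length levels were in the order Col4a3, Col4a2, Col4a1 and Col4a4, with 629, 71.5, 60.6 and 52.5 own-length TPM. The means of the last 3 differed by less than their SD over neurons (137, 128 and 73.4). By median the order was another: 557 for Col4a3 and 22.1 for Col4a4, with Col4a1 and Col4a2 at 0. Where a LOC held both Col4a3 and Col4a4 (16 neurons), Col4a3 exceeded Col4a4 in every one, by a median of 8.08-fold (1.37 to 28.2). In pLSOs, Col4a1 had 54.6 own-length TPM ± 96.7 and Col4a2 23.8 ± 56.5, a difference below the spread over neurons.

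**Figure D3:**
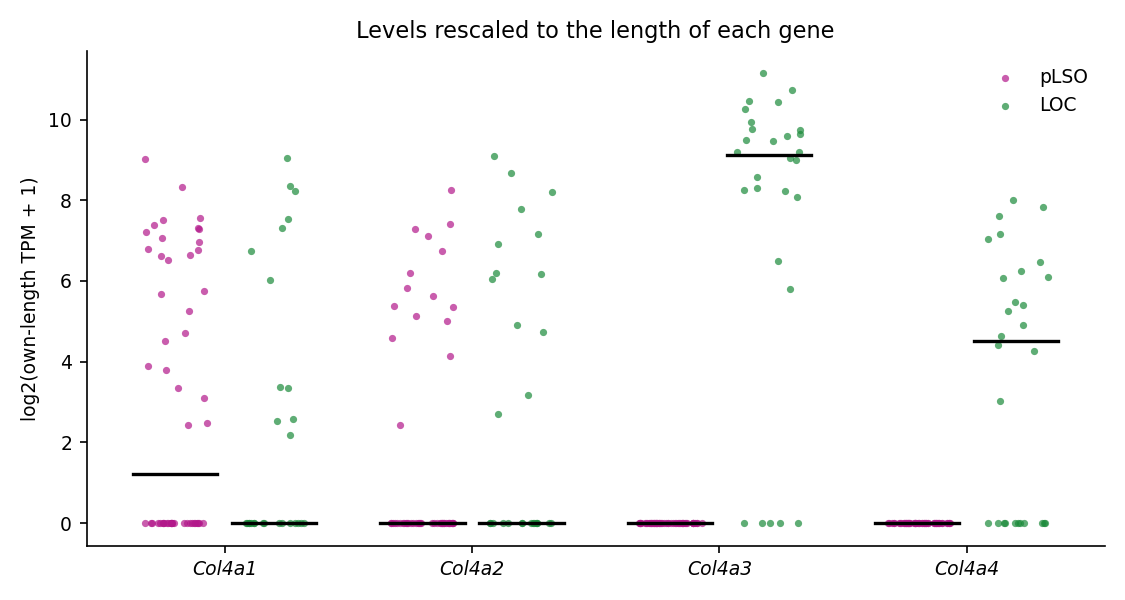
Level of 4 genes in each kept neuron after rescaling to the length of each gene, as log2(own-length TPM + 1) on the y axis, for pLSOs (52 neurons) and LOCs (28 neurons); each point is 1 neuron and the black line is the median. The median of Col4a3 in LOCs corresponds to 557 own-length TPM, and that of Col4a4 to 22.1.

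The neighbouring pairs were compared neuron by neuron. Col4a3 and Col4a4 were both detected in 16 LOCs, Col4a3 alone in 7, Col4a4 alone in 1 and neither in 4. Col4a4 was thus present in 69.6% of the LOCs with Col4a3, and Col4a3 in 94.1% of those with Col4a4. The neuron with Col4a4 alone, cell_68, had 1 TPM of it. The 7 neurons with Col4a3 alone were not those with the least of it: they held 158, 153, 100, 86, 84, 39 and 39 TPM of Col4a3, among them the highest 2 values of all LOCs. In these neurons a Col4a4 value of 0 stood for fewer than 4.51 to 12.4 reads, beside 504 to 2763 reads of Col4a3. Of these 7 neurons, 4 had fewer than 2000 detected genes, and among the 22 LOCs with at least 2000 the counts were 16, 3, 1 and 2.

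Over the 28 LOCs, Pearson's r of log2(TPM + 1) between Col4a3 and Col4a4 was 0.32 and Spearman's rho 0.12, which describes these neurons only. Over all 80 neurons r was 0.68, where the points share the zeros of the 52 pLSOs. Within LOCs the level of Col4a3 had a Spearman's rho of -0.12 with the number of estimated reads and -0.32 with the number of detected genes.

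Col4a1 and Col4a2 were detected together in both classes, often with 1 of them alone. In pLSOs both were found in 11 neurons, Col4a1 alone in 15, Col4a2 alone in 4 and neither in 22. In LOCs the counts were 7, 5, 6 and 10. Col4a2 was present in 42.3% of the pLSOs with Col4a1 and in 15.4% of those without, and in 58.3% and 37.5% of the LOCs. At 5 TPM these shares were 30.0% and 18.8% in pLSOs and 28.6% and 42.9% in LOCs. At 10 TPM they were 5.88% and 17.1% in pLSOs and 28.6% and 33.3% in LOCs. Among neurons with at least 2000 detected genes they were 50.0% and 13.6% in pLSOs and 50.0% and 50.0% in LOCs. Which share was higher thus depended on the threshold. The levels of the pair were weakly related in pLSOs (r = 0.18, n = 52) and in LOCs (r = 0.04, n = 28). At 10 TPM both genes were present in 1.92% of pLSOs and 7.14% of LOCs, against 21.2% and 25.0% at 1 TPM.

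**Figure D4:**
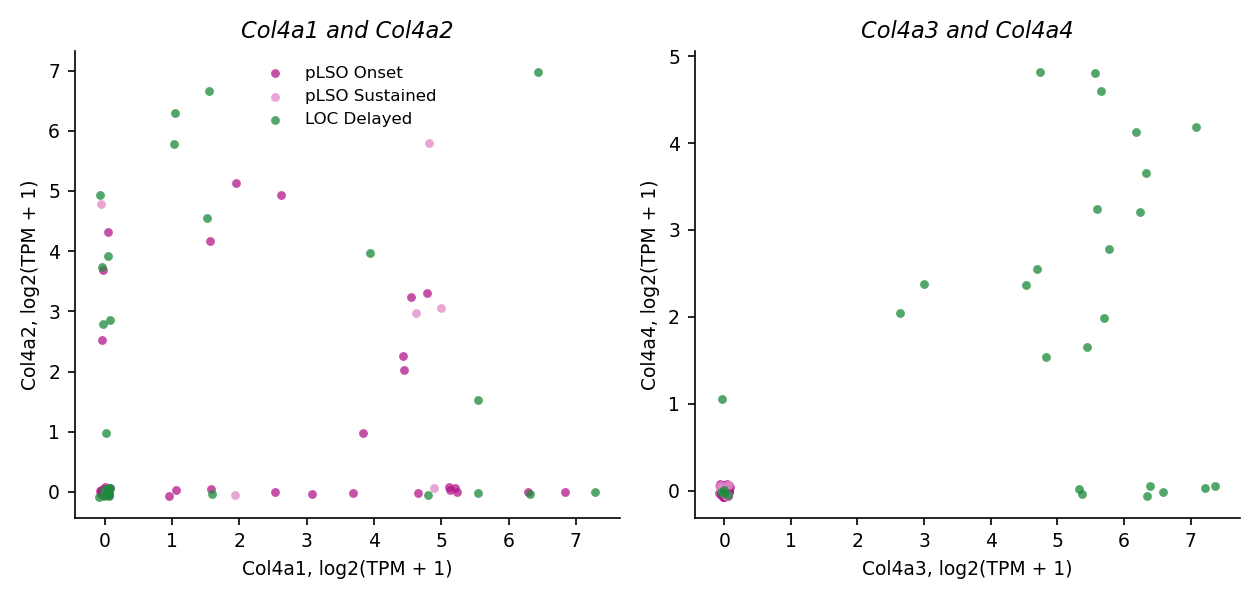
Levels of the head-to-head neighbours in each kept neuron, log2(TPM + 1) on both axes with a small random shift to separate the points; colours give the firing pattern. Many points of Col4a1 and Col4a2 lie on an axis, and 7 LOCs lie on the Col4a3 axis at 39 to 158 TPM with Col4a4 at 0.

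Counting over both pairs, 24 of 28 LOCs and 0 of 52 pLSOs held Col4a3 or Col4a4, whereas 18 LOCs and 30 pLSOs held Col4a1 or Col4a2. All 4 genes were present in 4 LOCs, 3 in 12 LOCs and none in 3 LOCs. Each of the 13 LOCs with Col4a2 also had Col4a3, as did 11 of the 12 LOCs with Col4a1 and 23 of all 28. No gene of the family was found in 22 pLSOs.

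Genes whose levels followed Col4a3 most closely over the 80 neurons (of 10319 compared) were Calca (r = 0.83), Scn3a (0.76), a sodium channel subunit, Anxa2 (0.74), a membrane-binding annexin, Isl1 (0.72) and Cadps2 (0.69), which acts in the release of dense-core vesicles. For Col4a4 these were Anxa2 (0.76), Col4a3 (0.68), Calca (0.65), Ucn (0.63) and Bambi (0.63), a pseudoreceptor of TGF-β signalling. These genes were also detected more often in LOCs, for example Anxa2, which was detected in 22 of 28 LOCs and 2 of 52 pLSOs, and Scn3a, in 23 and 13. Within the 28 LOCs (4563 genes compared) the nearest genes to Col4a3 were Myef2 (0.74), Scn3a (0.70), Clasp2 (0.66), Acly (0.63) and Ogt (0.61), and Col4a4 was number 162. The nearest to Col4a4 within LOCs were Tacc1 (0.73), ENSMUSG00000026464 (0.68), which has no symbol in the annotation used here, Tsc22d4 (0.68), Baz2b (0.63) and Rab3gap1 (0.62). Scn3a was the only gene among the 5 nearest to Col4a3 both over all neurons and within LOCs.

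The recorded properties of the LOCs were set beside the levels as a description. Over 16 features, each recorded in 19 to 28 LOCs, Spearman's rho with Col4a3 lay between -0.19 (capacitance, n = 27) and 0.37 (sag amplitude, n = 28). For Col4a4 it lay between -0.28 (action potential halfwidth, n = 28) and 0.41 (action potential latency at rheobase, n = 28). For Col4a1 it lay between -0.37 and 0.31 in LOCs and between -0.25 and 0.30 in pLSOs.

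Other collagen genes did not share the pattern of Col4a3 and Col4a4. Of 38 other collagen genes in the table, 28 were above 0 in at least 1 library and 12 were detected in at least 5% of neurons. Of these 12, 1 was called in LOCs (2.8% of all genes) and 1 in pLSOs (3.91% of all genes). With so few genes nothing is read from these counts. Col19a1, a collagen of the fibril-associated kind, was called in LOCs (12 of 28 against 4 of 52 pLSOs, means of 61.4 and 1.46 TPM). Col24a1, a fibrillar collagen, was called in pLSOs (14 of 52 against 0 of 28, mean 19.3 TPM). Col11a1, another fibrillar collagen, was the most frequent, with similar shares (17 of 52 and 9 of 28). The median of the 12 genes was -0.10 in log2(TPM + 1), LOC minus pLSO, against -0.07 over all genes.

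The proteins that build, bind and remove type IV collagen were taken as 4 lists. Of 17 basement membrane partners, 6 were detected in at least 5% of neurons, 0 were called in LOCs (2.8% of all genes) and 1 in pLSOs (3.91% of all genes), from which with so few genes nothing is read. This was Lama3, a laminin α chain (15 of 52 against 0 of 28). The most frequent was Sparc, a secreted collagen-binding protein (24 of 52 and 11 of 28), followed by the laminin chain Lamc1 (11 and 7). The median difference of the 6 genes was -0.40.

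Of 26 genes for folding, modification, export and cross-linking of collagen, 14 were detected in at least 5% of neurons. Of these, 0 were called in LOCs (2.8% of all genes) and 2 in pLSOs (3.91% of all genes). With so few genes nothing is read from these counts. The called genes were Plod1, a lysyl hydroxylase of collagen (16 of 52 against 2 of 28), and Col4a3bp (22 of 52 against 6 of 28), which is named for the α3 chain but encodes a ceramide transfer protein. Ppib, a prolyl isomerase of the endoplasmic reticulum, was detected in 39 pLSOs and 14 LOCs. Mia3 and Mia2, which act in the export of large cargo from the endoplasmic reticulum, were detected in 22 and 18 pLSOs and in 13 and 11 LOCs. The median difference of the 14 genes was 0.30.

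Of 13 collagen receptors, 5 were detected in at least 5% of neurons, among them Cd47 (21 pLSOs and 7 LOCs) and the integrin chain Itgb1 (18 and 8). The integrin chain Itgav was called in pLSOs (15 of 52 against 0 of 28), and the median difference was -0.14. Of 13 genes of type IV collagen degradation, 7 were detected in at least 5% of neurons, led by the metalloproteinase Mmp16 (18 and 9) and the inhibitor Timp2 (14 and 10). The inhibitor Timp3 was called in pLSOs (13 of 52 against 1 of 28), and the median difference was 0.07. In the receptor and in the degradation list, 1 gene each was called in pLSOs (3.91% of all genes) and 0 in LOCs (2.8%). With so few genes nothing is read from these counts.

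**Figure D5:**
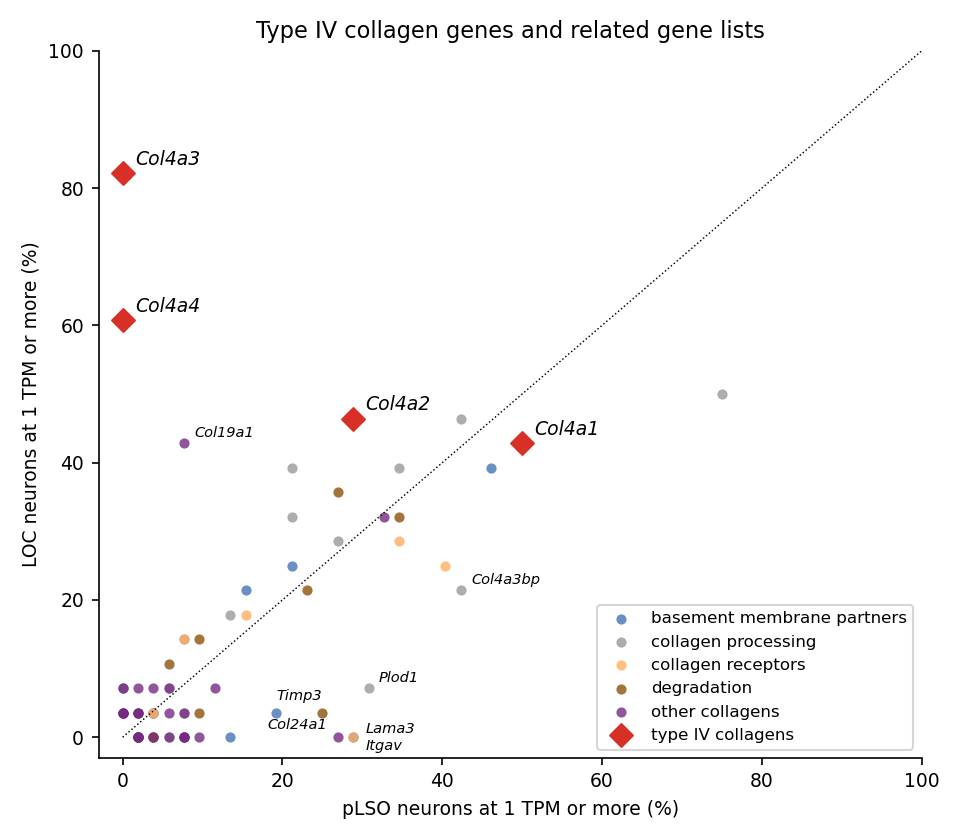
Share of pLSOs (x axis, %) and of LOCs (y axis, %) with 1 TPM or more of each gene of the type IV collagen family (diamonds) and of the related gene lists (circles); the dotted line marks equal shares, and named circles are genes called between the classes. Col4a3 and Col4a4 lie on the left edge at 82.1% and 60.7%, and Col19a1 is the only circle called on the LOC side.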

How the data were processed

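The expression table of patch-seq libraries was used (modified Smart-seq2). The authors trimmed the reads (Trim Galore 0.4.2), aligned them to mm10 with STAR, marked duplicates with Picard 1.115 and counted genes with featureCounts. The deposited score values are whole-number TPM, normalised by the authors, summing to between 999773 and 1000026 in each library.

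Members and gene lists were chosen with earlier results of these data known. They were matched by Ensembl identifier to Gencode vM21 (37570 of 38887 genes had a length), and the earlier Gencode release of the study was not used here. The TPM of 1 read in each library and a divisor for each row were estimated from steps between values. Tested on simulated data of all 96 libraries and 38887 genes, 96 libraries were recovered within 2%, and the divisors of the members within 3.11%. Own-length TPM is the estimated read number divided by exon length, scaled to a total of 1000000. Labels were rechecked against the cluster means of the study over 1463 genes.

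Detection means 1 TPM or more, shares carry exact Clopper-Pearson 95% intervals, and a share of 0 carries the limit of 3 over n. A gene was called at a 2-fold mean and 20 percentage points, among genes detected in 5% of neurons. The labels name no animals, so no test was made. From each list the called genes and the 3 most frequent are named, and the 5 genes with the highest Pearson correlation with Col4a3 and Col4a4. The LOC and pLSO markers were chosen by the study on these libraries. Promoter sequences were at hand for 5 of 6 members. Tools were SciPy 1.17.1, NumPy 2.4.6, matplotlib 3.10.9 and pandas 2.3.3 in Python 3.11.15.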

Additional observations from a re-analysis of the deposited data

Results flagged for a closer look

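Among the 6 neurons left out, 3 held transcripts of the family above the highest negative control. In cell_54, labelled as a Sustained neuron, Col4a3 was listed at 120 TPM (4916 estimated reads), Col4a4 at 6 TPM and Col4a2 at 91 TPM, beside 1887 TPM of Calca and 0 of Spp1. With this library counted as labelled, Col4a3 and Col4a4 were each detected in 1 of 12 Sustained neurons. In cell_85, labelled as a LOC, Col4a3 was listed at 77 TPM, Col4a4 at 10 TPM and Col4a1 at 53 TPM, from 49674 estimated reads. In cell_78, also labelled as a LOC, Col4a3 was listed at 7 TPM. In the other 3, cell_36, cell_39 and cell_40, all labelled as Onset neurons, no gene of the family was found. Of the 2 negative controls left out, NC5 held 124 TPM of Col4a1 (224 estimated reads) and 3 TPM of Col4a2, and NC6 held none.

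In the 8 negative controls, 1 library was highest for Col4a1 (25 TPM against 10 TPM for the next) and 1 for Col4a3 (5 TPM against 1 TPM). The gap to the next library was 0.6 and 0.8 of the whole range. The values of Col4a1 and Col4a3 in these controls stood for at most 1.30 and 3.56 reads. The 25 TPM of Col4a1 was 1 read in NC7, which held 4308 estimated reads. The 5 TPM of Col4a3 was 2 reads in NC9, which held 16908. The critical value of 0.526 for 8 libraries assumes normally distributed values. It cannot be applied to so few reads in libraries of such different depth, so no outlier is called.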

How the results depend on the processing

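No paired analysis was possible because no result comes from a test and the labels name no animals.
Of 258 recomputed values of 56 results, 224 were labelled the same. Means and log2 differences were judged against the spread, shares against the counting interval, ratios by a fixed fold and orders by place. The setting without a filter on low values repeated the main calculation, so its values were the same by construction. Values of 0, such as those of Col4a3 and Col4a4 in pLSOs, could not change at a higher threshold or among deeper libraries either. Means counted as the same within the SD over neurons, a wide limit. The mean of Col4a1 in Onset neurons was 12.2 TPM and 2.84 when averaged on the log2 scale, labelled the same. The count of 224 is thus no measure of robustness. The ratio of Col4a1 fell to 0.947 without the LOC of highest value, an alternative added after seeing the data. The ratio of Col4a2 was 1.89 against Sustained neurons alone. With the 8 libraries counted as labelled, mean TPM became 2.14 (Col4a3) and 0.107 (Col4a4) in pLSOs, 10.0 and 0.5 in Sustained neurons, and 16.5 (Col4a1) and 0.3 (Col4a2) in negative controls. With pseudocounts of 0.1 and 10 and with own-length TPM, the log2 difference between LOCs and pLSOs was 7.29, 2.13 and 7.53 for Col4a3 and 3.67, 0.53 and 3.57 for Col4a4, always higher in LOCs. At 5 and 10 TPM, Col4a4 was detected in 35.7% and 21.4% of LOCs, and both Col4a3 and Col4a4 in the same shares. At 10 TPM the share with Col4a1 was 31.7% of Onset neurons and 32.7% of pLSOs, and with Col4a2 12.2% and 13.5%. Col4a3 was listed in 12.5% of negative controls at 5 TPM and in 0% at 10 TPM. Both Col4a1 and Col4a2 were found in 1.92% of pLSOs at 10 TPM and in 7.14% of LOCs at 5 and at 10 TPM. At 100 RPM (estimated) or more, a threshold added after seeing the data, Col4a1 was found in 31.7% of Onset neurons, 32.7% of pLSOs and 12.5% of negative controls, Col4a2 in 15.4% of pLSOs, Col4a3 in 12.5% of negative controls, and both Col4a1 and Col4a2 in 3.85% of pLSOs and 7.14% of LOCs. The order of mean levels was the same with deposited TPM. The causes were not tested. Whole-number rounding and 1 sample per group limit the precision.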
